A study of Mus musculus with 4 samples.

Results

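The platelet-derived growth factor (PDGF) system is encoded by 6 genes in the mouse, the 4 ligand genes *Pdgfa*, *Pdgfb*, *Pdgfc* and *Pdgfd* and the 2 receptor genes *Pdgfra* and *Pdgfrb*. All 6 were found by gene symbol among the 56748 genes of a lens RNA sequencing table. Lenses came from mice of 10 to 12 days of age in 2 groups, each with 2 libraries labelled replicates 1 and 2. Mutant lenses were labelled *Fsp1-cre;Pdgfrb+/D849V*, and control lenses *Fsp1-cre;Pdgfrb+/+*. The D849V allele replaces an aspartate of the kinase activation loop and makes PDGFRβ active without ligand. It is a conditional knock-in at the endogenous *Pdgfrb* locus, so any altered transcript is counted together with the wild-type one as *Pdgfrb*. The paper describes cre reporter activity in the lens epithelium from week 4, an age later than that of these lenses. It assumes that the mutant receptor is expressed once cre is active, and the share of altered transcript was not measured here. Cre was driven by the promoter of *Fsp1*, also called *S100a4*, which is not specific to the lens. The mice were on an FVB/N background, and the line also carried a *Rosa-LSL-tdTomato* reporter. According to the methods, control pools also took in cre-negative mice, with and without the D849V allele, whereas the labels give the cre-positive wild type alone. Lenses of several mice were pooled for each library. The study gives a group size for this experiment without saying whether it counts mice or lenses or how they fell into the pools, and p-values measure the spread between these pools only.

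PDGF ligands are secreted dimers that bring 2 receptor chains together, so that the chains phosphorylate each other and recruit adaptors of the Ras-MAPK, PI3K-Akt, phospholipase C and STAT pathways. PDGF-A and PDGF-C act mainly through PDGFRα, PDGF-D mainly through PDGFRβ, and PDGF-B through both. PDGF-A and PDGF-B are cut inside the cell by furin-type convertases, whereas PDGF-C and PDGF-D are secreted with a CUB domain that extracellular proteases must remove. In the eye, PDGFRα is known from the lens epithelium, where PDGF promotes proliferation. PDGFRβ is best known from pericytes and other mural cells, which are recruited to vessels by PDGF-B from endothelium, including those of the hyaloid vasculature around the young lens. Citing earlier work, the paper also places PDGFRβ in human and rat lens epithelium, and *Pdgfrb* in epithelial and fibre cells of newborn mouse lenses.

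Values are FPKM, fragments scaled to gene length and to a size set for each library, which allows levels to be compared between genes. Whole reads could be recovered from every value, and the libraries held 18561682 to 18878768 reads, of which crystallin genes took 58.6% to 62.9%. The size used for scaling was 0.944 to 1.049 times the recovered reads of a library. Intervals given for single libraries are exact Poisson 95% intervals on those reads and cover counting error only. *Xist* FPKM was 7.62 and 13.1 in mutant libraries 1 and 2 and 15.6 and 5.56 in control libraries 1 and 2, and summed Y-chromosome FPKM was 10.9 and 7.89 in mutant and 5.07 and 12.2 in control libraries. The groups overlapped in both of these sex-linked measures.

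The lens samples held 1 PDGF transcript of higher level, 2 of intermediate level and 3 that were scarce. *Pdgfra* had the highest mean FPKM over the 4 libraries (5.11), followed by *Pdgfa* (2.19), *Pdgfrb* (2.14), *Pdgfb* (0.246), *Pdgfd* (0.0798) and *Pdgfc* (0.0108). Among all 56748 genes these were ranks 2867, 5481, 5578, 13051, 16776 and 22681. *Pdgfra* exceeded *Pdgfa* in 4 of 4 libraries, by 2.01 to 2.78 times, and the 2 ranges did not overlap. *Pdgfa* and *Pdgfrb* could not be put in order, since *Pdgfa* was the higher of them in 1 of 4 libraries. *Pdgfrb* exceeded *Pdgfb* by 5.88 to 17.6 times. *Pdgfb* exceeded *Pdgfd* in 3 of 4 libraries, with overlapping ranges, and *Pdgfd* exceeded *Pdgfc* in 4 of 4, again with overlapping ranges. The plot of levels by library shows the gap between the first 3 genes and the last 3.

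**Figure D1:**
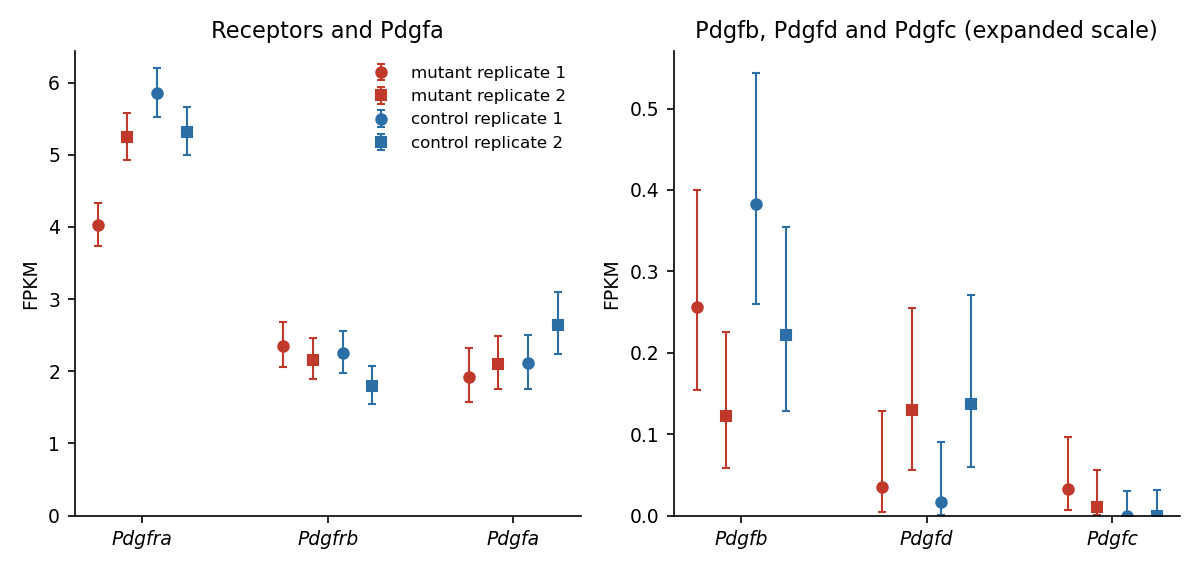
FPKM of the 6 PDGF genes in each library, with mutant libraries in red and control libraries in blue, circles for replicate 1 and squares for replicate 2, and bars for exact Poisson 95% intervals on recovered reads or, for a count of 0, up to the limit of 3 reads. The right panel has an expanded scale. *Pdgfra* lies between 4.02 and 5.86 FPKM and is lowest in mutant library 1, while *Pdgfb* does not exceed 0.383 FPKM.

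*Pdgfa* encodes the A chain, the main ligand of PDGFRα. The gene (ENSMUSG00000025856) lies on the minus strand of chromosome 5 from 138961769 to 138983125 in the table's build, mm39 according to the labels, and its length for counting was 3119 bases. Its FPKM was 1.92 and 2.10 in mutant libraries 1 and 2, from 107 and 128 reads, and 2.11 and 2.64 in control libraries 1 and 2, from 128 and 152 reads. Both mutant libraries were below both control libraries, but mutant library 2 and control library 1 differed by less than their counting error. The means were 2.01 ± 0.121 in mutant and 2.38 ± 0.377 in control lenses (SD, n = 2 each). The mutant-minus-control difference on the log2(FPKM + 0.1) scale was -0.22 (SE 0.16, 95% interval -0.63 to 0.19, limma adjusted p = 0.810). *Pdgfa* overlaps an antisense lncRNA, 6330403L08Rik, which had 35 to 44 reads, and it is not stated whether the counting used strand.

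*Pdgfb* encodes the B chain, the endothelial ligand that recruits pericytes. The gene (ENSMUSG00000000489) lies on the minus strand of chromosome 15 from 79880075 to 79899178, with a length of 4161 bases. Its FPKM was 0.256 and 0.123 in mutant libraries 1 and 2, from 19 and 10 reads, and 0.383 and 0.222 in control libraries 1 and 2, from 31 and 17 reads. The groups overlapped, because mutant library 1 lay above control library 2. The log2 difference was -0.48 with a wide 95% interval of -1.59 to 0.63 (SE 0.43, limma adjusted p = 0.818). The libraries fell in the same order by *Pdgfb* as by the summed FPKM of 12 endothelial markers. That sum was 12.4 and 9.25 in mutant and 14.0 and 11.1 in control libraries. The counting intervals of *Pdgfb* overlapped between neighbours in this order, such as 0.154 to 0.400 FPKM in mutant library 1 and 0.129 to 0.355 in control library 2. The order is therefore not settled by these reads. The part of endothelium in the *Pdgfb* level was not tested, and in bulk lenses fewer cells of a type and less RNA per cell cannot be told apart.

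*Pdgfc* and *Pdgfd* encode the ligands that need proteolytic activation, and both were under the mean of 0.1 FPKM required for the genotype test. *Pdgfd* (ENSMUSG00000032006, chromosome 9, plus strand, 6168584 to 6378850) had 2 and 8 reads in mutant libraries 1 and 2 and 1 and 8 reads in control libraries 1 and 2. These reads gave 0.0356 and 0.130 FPKM in mutant and 0.0163 and 0.138 FPKM in control libraries, so the groups overlapped and each group had 1 library with 8 reads. *Pdgfc* (ENSMUSG00000028019, chromosome 3, plus strand, 80943723 to 81121347) had 3 and 1 reads in the mutant libraries and 0 reads in both control libraries. A count of 0, taken to allow 3 reads in place of a Poisson interval, allows up to 0.0303 and 0.0320 FPKM in control libraries 1 and 2, against 0.0331 and 0.010 FPKM in the mutant libraries. No genotype difference of *Pdgfc* was detectable at this depth.

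*Pdgfra* encodes PDGFRα, the receptor for all ligand chains but PDGF-D, and had the most reads of the 6 genes. The gene (ENSMUSG00000029231) lies on the plus strand of chromosome 5 from 75312953 to 75358876, with a length of 10024 bases. Its FPKM was 4.02 and 5.25 in mutant libraries 1 and 2, from 719 and 1030 reads, and 5.86 and 5.32 in control libraries 1 and 2, from 1142 and 983 reads. Mutant library 1 stood apart, with a counting interval of 3.73 to 4.33 FPKM that met none of the other 3, the nearest of which was 4.93 to 5.58 in mutant library 2. Mutant library 2 and control library 2 differed by less than their counting error. The means were 4.64 ± 0.866 in mutant and 5.59 ± 0.381 in control lenses (SD, n = 2 each), and the log2 difference was -0.28 (SE 0.16, 95% interval -0.68 to 0.13, limma adjusted p = 0.810). On recovered reads, limma's voom gave an unadjusted p of 0.0376 and an adjusted p of 0.637. Without mutant library 1 the log2 difference was -0.09, and without mutant library 2 it was -0.46.

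*Pdgfra* is a long gene, and the libraries differed by gene length, mutant library 1 the most. Among 1214 genes of at least 8000 bases that averaged 1 FPKM or more, the median log2 deviation from the mean of the 4 libraries was -0.062 in mutant library 1, -0.0041 in mutant library 2, 0.029 in control library 1 and 0.036 in control library 2. Among 786 genes under 1000 bases the values were 0.10, -0.0011, -0.037 and -0.021. In both classes mutant library 2 lay between mutant library 1 and the control libraries. Genotype and library cannot be told apart in this trend, so centring by length may also take out a group difference. Mutant library 1 was the lowest library for 46.7% of the long genes, against 18.1% of the genes under 1000 bases. The deviation of *Pdgfra* in mutant library 1 was -0.33, larger in size than the median of its length class. With the medians of 6 length classes taken out of each library, the log2 difference of *Pdgfra* was -0.21 (limma adjusted p = 0.820). The plot of deviation by gene length shows the slope of mutant library 1. Its part in the *Pdgfra* values beyond this centring was not tested.

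**Figure D2:**
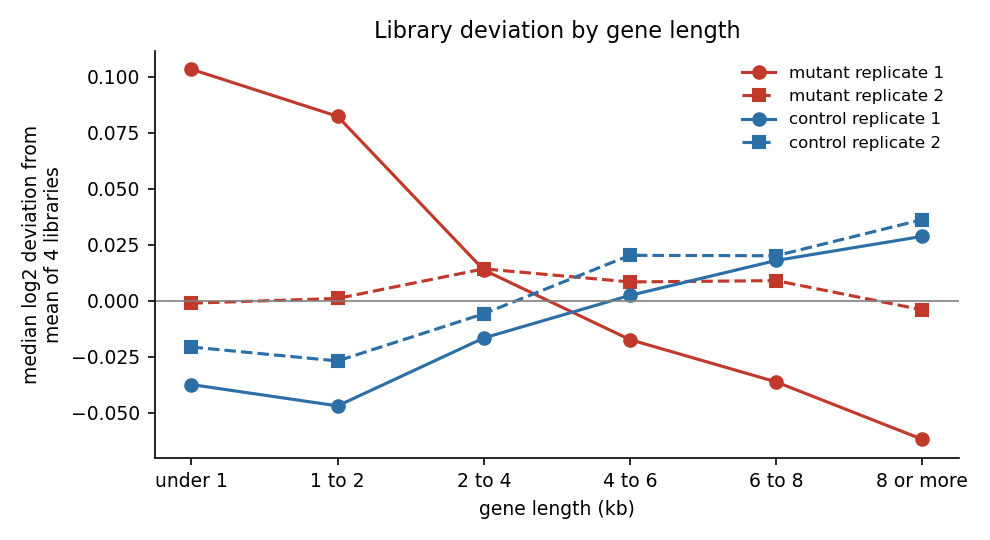
Median log2 deviation of each library from the mean of the 4 libraries, in 6 classes of gene length in kilobases, over genes averaging 1 FPKM or more. Mutant libraries are red and control libraries blue, with solid lines and circles for replicate 1 and dashed lines and squares for replicate 2. Mutant library 1 passes from 0.10 in the shortest class to -0.062 in the longest, while both control lines slope the other way. The mean includes all 4 libraries, so the lines are not independent of each other.

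*Pdgfrb* encodes PDGFRβ, the receptor that carries the D849V change in mutant mice. The gene (ENSMUSG00000024620) lies on the plus strand of chromosome 18 from 61178222 to 61218133, with a length of 5478 bases. Mutant libraries 1 and 2 had 230 and 232 reads (2.36 and 2.16 FPKM), and control libraries 1 and 2 had 240 and 181 reads (2.25 and 1.79 FPKM). The groups overlapped, with control library 1 between the 2 mutant libraries. Group means were 2.26 ± 0.136 in mutant and 2.02 ± 0.326 in control lenses (SD, n = 2 each). The log2 difference was 0.16 (SE 0.16, 95% interval -0.25 to 0.57, limma adjusted p = 0.836), and it was 0.0025 without control library 2. In folds, the interval ran from 0.840 to 1.49. The summed FPKM of 12 mural cell markers was 20.8 and 17.1 in mutant libraries 1 and 2 and 20.1 and 20.6 in control libraries 1 and 2. These ranges overlapped as well. By the mural markers mutant library 2 was lowest, whereas by *Pdgfrb* control library 2 was lowest.

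Across the family, 4 genes passed the filter on low values, and 0 of them passed an adjusted p of 0.05, either in limma or in voom. An unadjusted p under 0.05 was reached by 0 of the 4 in limma and by 1, *Pdgfra*, in voom. Over all 15997 genes tested, 0.0375% passed the adjusted threshold in limma (0.025% higher and 0.0125% lower in mutant lenses) and 6.31% the unadjusted one (3.39% higher and 2.92% lower), and 0.0875% and 7.43% did so in voom. The log2 difference was negative for 3 of the 4 genes, against 49.3% of all genes. Both mutant libraries lay below both control libraries for 2 of the 4, *Pdgfa* and *Pdgfra*, against 18.3% of all genes, and above them for 0 of the 4, against 18.2%. Among genes averaging 1 FPKM or more, the share below was 31.8% at 8000 bases or more, the length class of *Pdgfra*. It was 15.4% at 2000 to 4000 bases, the length class of *Pdgfa*. The median log2 difference was -0.25 over the 4 genes and 0.0041 over all genes. The plot of genotype differences shows that each 95% interval includes 0.

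**Figure D3:**
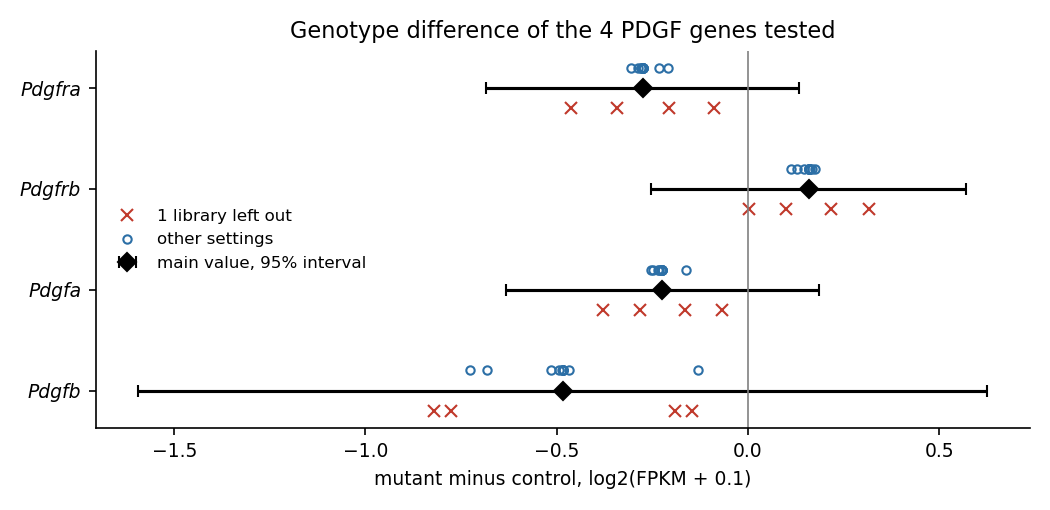
Mutant-minus-control difference on the log2(FPKM + 0.1) scale for the 4 PDGF genes tested, as black diamonds with limma's 95% intervals. Blue circles are other settings and red crosses are fits with 1 library left out. Every interval spans 0, and the points of *Pdgfrb* stay at or above 0.0025 while those of the other 3 genes stay below 0.

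A ratio of 2 genes within a library does not depend on how that library was scaled. A deviation by gene length, as in mutant library 1, stays in it where the 2 genes differ in length. *Pdgfra* has 10024 bases and *Pdgfrb* 5478. *Pdgfra* over *Pdgfrb*, the balance of the receptors, was 1.71 and 2.43 in mutant libraries 1 and 2 and 2.60 and 2.97 in control libraries 1 and 2. Both mutant libraries were below both control libraries, with a log2 difference of -0.45. The two-sided exact permutation p was 0.333, the smallest that 2 against 2 libraries can give, and 0.667 after Benjamini-Hochberg adjustment over the 4 ratios tested. Without mutant library 1 the log2 difference of this ratio was -0.20. *Pdgfra* made up 63.1% and 70.8% of the receptor FPKM in mutant and 72.2% and 74.8% in control libraries.

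*Pdgfa* supplied most of the ligand transcript, at 84.1% to 88.9% of the summed FPKM of the 4 ligand genes. *Pdgfb* supplied 5.20% to 15.3%, *Pdgfd* 0.650% to 5.49% and *Pdgfc* 0% to 1.47%. The summed ligand FPKM was 2.25 and 2.36 in mutant and 2.51 and 3.003 in control libraries. *Pdgfa* over *Pdgfb* ranged from 5.51 to 17.1 and overlapped between the groups (exact permutation p = 0.667, the same after adjustment). The summed PDGFRα-selective ligands, *Pdgfa* and *Pdgfc*, exceeded the summed *Pdgfb* and *Pdgfd* by 6.71 and 8.35 times in mutant and by 5.28 and 7.36 times in control libraries, with overlapping groups (exact permutation p = 0.667). *Pdgfd* over *Pdgfb* ran from 0.0426 to 1.06, a spread set by 1 to 8 *Pdgfd* reads. Receptor transcripts exceeded ligand transcripts in 4 of 4 libraries, by 2.37 to 3.23 times.

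**Figure D4:**
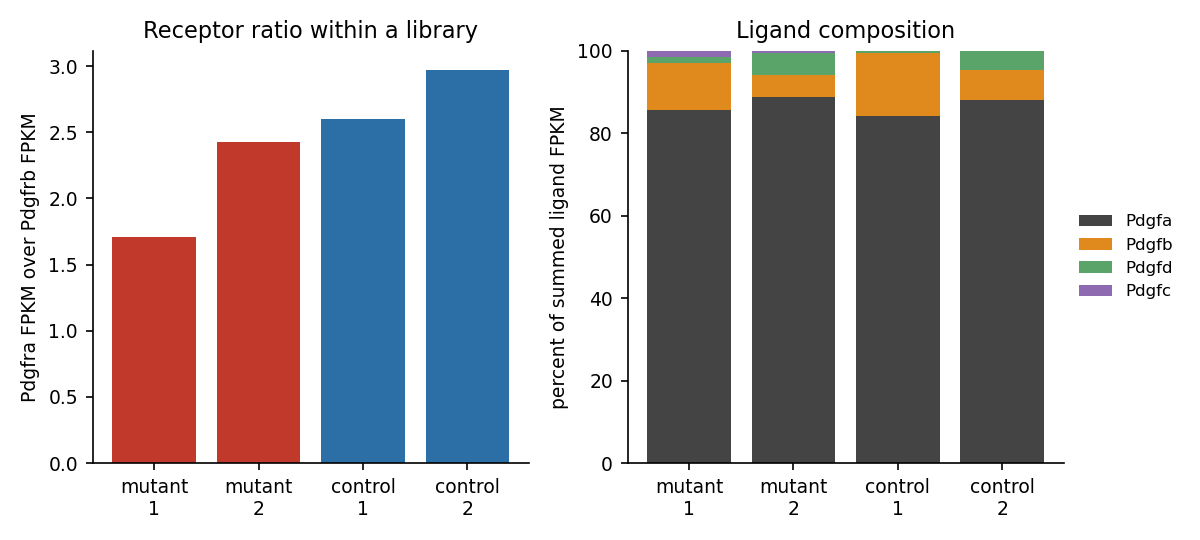
Left, FPKM of *Pdgfra* over *Pdgfrb* in each library, with mutant libraries in red and control libraries in blue. Right, the percentage of the summed FPKM of the 4 ligand genes that each ligand supplied. The receptor ratio of the mutant libraries, 1.71 and 2.43, lies under that of the controls, 2.60 and 2.97, and *Pdgfa* takes at least 84.1% of ligand FPKM in each.

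Genes that act with PDGF were read from 4 lists with 85 genes in all, of which 78 passed the filter. An adjusted p under 0.05 in limma was reached by 0 of the 78. At an unadjusted p under 0.05, 1 was higher and 2 were lower in mutant lenses, or 3.85% against 6.31% of all genes. Both mutant libraries were above both controls for 10, or 12.8% against 18.2% of all genes, and below them for 20, or 25.6% against 18.3%. For both directions together this was 38.5% against 36.6%. The log2 difference was negative for 51, or 65.4% against 49.3% of all genes, and positive for 27. The pathway genes were long, with a median of 5157 bases against 3504 for all genes tested, and with length classes centred 44 of the 78 were negative, or 56.4% against 49.5% of all genes.

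Of 15 genes that process or bind the ligands, 12 were tested, with a median log2 difference of -0.17, 10 of them negative. *Furin*, the convertase of the A and B chains, had FPKM of 2.49 and 2.84 in mutant and 2.87 and 3.30 in control libraries (log2 difference -0.20). *Lrp1*, an endocytic co-receptor of PDGFRβ, had 2.68 and 3.71 in mutant and 5.18 and 3.73 in control libraries (log2 difference -0.47, SE 0.23). *Ndst1*, which sulfates the heparan chains that hold PDGF at the cell surface, had a log2 difference of -0.44 (SE 0.29). Its FPKM was 1.67 and 2.94 in mutant and 3.38 and 2.73 in control libraries, and it lies 296.5 kb from *Pdgfrb*. The limma adjusted p was 0.810 for each of *Furin*, *Lrp1* and *Ndst1*. Among the activators of PDGF-C and PDGF-D, *Plat* had 0.810 to 0.953 FPKM, whereas *Plau*, *Plg* and *St14* were below the filter.

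All 36 receptor adaptors and effectors were tested, with a median log2 difference of -0.04, 24 of them negative. *Sos2*, a Ras exchange factor, was lower in both mutant libraries, at 2.23 and 2.30 FPKM against 2.77 and 3.09 (log2 difference -0.35, SE 0.13, limma adjusted p = 0.781). *Ptpn11*, which encodes the phosphatase SHP2, had a log2 difference of -0.33 (SE 0.15, limma adjusted p = 0.809). *Shc1*, the most abundant of the list, had 57.6 and 59.7 FPKM in mutant and 50.3 and 54.7 in control libraries.

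All 14 genes of receptor turnover and dephosphorylation were tested. *Spry2*, an inhibitor of receptor tyrosine kinase signaling to ERK, had 4.89 and 4.70 FPKM in mutant and 6.55 and 6.84 in control libraries. Its log2 difference of -0.47 (SE 0.10, limma adjusted p = 0.580) was the one with the smallest p of all 4 lists. *Socs2*, an inhibitor of cytokine receptor signaling, had 62 and 66 reads in mutant and 16 and 7 in control libraries. Its log2 difference was 1.51 (SE 0.42, limma adjusted p = 0.702), and it was the only gene of the 4 lists to pass in voom (log2 difference 2.54, adjusted p = 0.0340). Its mean was 0.359 FPKM in mutant and 0.0631 in control lenses. It therefore passed the filter of 0.1 FPKM through the mutant libraries. *Ptpn2*, a phosphatase that acts on PDGFRβ, had a log2 difference of 0.32 (SE 0.13). Of the 14 genes, 3 lay above the controls in both mutant libraries and 2 below, beside 18.2% and 18.3% of all genes.

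Of 20 immediate early response genes, which growth factors induce within a short time, 16 were tested and 9 had a positive log2 difference (median 0.09). *Srf*, the transcription factor behind much of this response, had a log2 difference of -0.42 (SE 0.17), *Klf6* one of -0.32 and *Jun* one of -0.24. The limma adjusted p was 0.788 for *Srf* and 0.809 for the other two. *Fosb*, *Fosl1*, *Egr2* and *Egr3* were below the filter. In the plot of pathway genes this list has its median to the right of 0, and the other 3 pathway lists have theirs to the left.

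**Figure D5:**
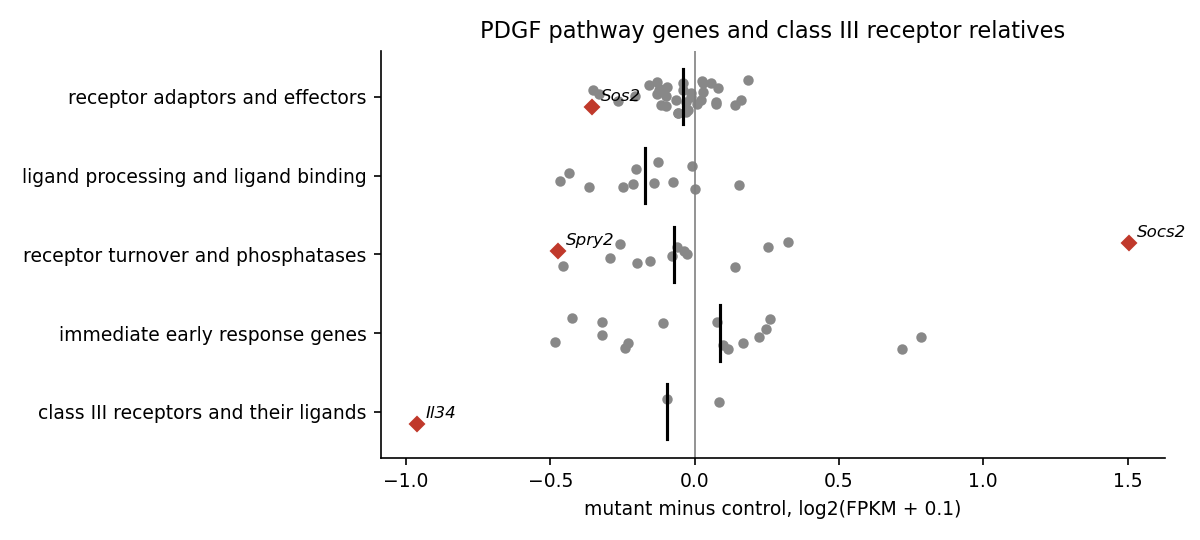
Mutant-minus-control difference on the log2(FPKM + 0.1) scale for each tested gene of the 4 PDGF pathway lists and of the class III receptor relatives. Grey points are genes, red diamonds are genes with an unadjusted limma p under 0.05, and black bars are list medians. *Socs2* (1.51) lies farthest to the right and *Il34* (-0.96) farthest to the left, and no gene passed after adjustment.

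The class III receptors related to PDGFRα and PDGFRβ were scarce in the lens. *Kit* had 9 and 6 reads in mutant and 16 and 18 in control libraries, *Csf1r* had 10 and 11 against 8 and 5, and *Flt3* was listed at 0 in all 4 libraries. Their ligand genes *Kitl* (2 to 16 reads) and *Flt3l* (0 or 1 read) were also below the filter. The CSF1R ligands were measurable. *Csf1* had 0.503 to 0.669 FPKM (log2 difference 0.08), and *Il34* had 6 and 7 reads in mutant and 19 and 14 in control libraries (log2 difference -0.96, SE 0.31, limma adjusted p = 0.749). *Pdgfrl*, which encodes a secreted protein resembling the PDGF receptor ectodomain, had 0.467 to 0.729 FPKM (log2 difference -0.10). *S100a4*, whose promoter drove cre, had 3.84 and 4.37 FPKM in mutant and 2.91 and 1.21 in control libraries. Its groups did not overlap, as for 18.2% of all genes in this direction. The difference did not pass adjustment (log2 1.08, SE 0.40, limma adjusted p = 0.783).

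Both receptor genes have receptor genes as neighbours, in the arrangement left by an ancient duplication. *Csf1r* starts 15.5 kb beyond *Pdgfrb*, while *Kit* and *Kdr* lie 377 kb and 735 kb from *Pdgfra*. *Kdr*, the endothelial VEGF receptor, had 33 to 37 reads in each library. Within 1 Mb of *Pdgfrb*, where the allele was altered, 27 genes were tested and 0 passed an adjusted p of 0.05 in limma. An unadjusted p under 0.05 was reached by 2 of them, or 7.41% against 6.31% of all genes. These were the lncRNA 1500015A07Rik, with 137 and 106 reads in mutant and 35 and 26 in control libraries (log2 1.87, limma adjusted p = 0.181, voom adjusted p = 0.0052), and the processed pseudogene BC023105, with 12 and 3 reads against 0 and 0 (limma adjusted p = 0.785). They lie 641 kb and 602 kb from *Pdgfrb*, so neither is within 0.5 Mb. BC023105, with 0 reads in both control libraries, passed the filter on mean FPKM through the mutant libraries alone.

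The genes with the most similar pattern over the 4 libraries were sought among 8378 genes averaging 1 FPKM or more, by the root mean square difference of centred log2 values. They were *Fam20b* and *Jade1* for *Pdgfra* (0.0064 and 0.010), *Vsnl1* and *Atg7* for *Pdgfrb* (0.0053 and 0.012), and *Usp9x* and *Ddx49* for *Pdgfa* (0.015 and 0.021). With 4 libraries such likeness is common. Within 0.1 of *Pdgfra* were 567 genes, of *Pdgfrb* 547 and of *Pdgfa* 472. For the low-count genes the nearest were Rpl36-ps12 and *Gm27178* (*Pdgfb*), *Zc3h8* and *Ahsa1* (*Pdgfc*), and *Tmem42* and *Rpl21-ps8* (*Pdgfd*, for which 0 genes lay within 0.1). Within 0.1 of *Pdgfb* were 7 genes and of *Pdgfc* 718, and the *Pdgfc* pattern rests on 0 to 3 reads a library.

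The samples carried the markers of lens. Summed over 12 fibre markers, FPKM was 161937 to 194235, led by *Cryaa*, with *Lim2* listed at 0. Summed over 8 epithelial markers it was 1381 to 1659, led by *Cd24a*, with mutant library 1 highest. Markers of other cell types were detected at low levels, and whether such cells were in the samples was not tested. Mural cell markers, led by *Acta2*, summed to 17.1 to 20.8 and endothelial markers, led by *Cldn5*, to 9.25 to 14.0. Of the 11 endothelial markers tested, 10 had a negative log2 difference, and so had 5 of the 8 mural markers tested, beside 49.3% of all genes. Both mutant libraries lay below both controls for 3 of the 11 and 4 of the 8, beside 18.3% of all genes. Markers of ciliary body and iris, led by *Cp*, summed to 39.0 to 46.4, and those of retina, led by *Gfap*, to 4.10 to 7.52. Fibroblast markers summed to 1.85 to 2.75, led by *Fbln1*, with *Lum* at 0, and pigment cell markers to 2.29 to 2.69, led by *Mitf*, with *Rpe65* at 0. Macrophage markers, led by *C1qa*, summed to 1.94 and 2.02 in mutant and 0.788 and 0.644 in control libraries. In each of these lists 0 genes passed an adjusted p of 0.05 in limma or in voom. An unadjusted limma p under 0.05 was reached by 6.31% of all genes. Among the markers tested it was reached by 3 of 3 for macrophages, from 10 listed, all higher in mutant lenses and without overlap. For ciliary body and iris it was reached by 3 of 8, 2 higher and 1 lower. It was reached by 2 of 8 mural, 1 of 11 fibre and 1 of 11 endothelial markers, all lower, by 1 of 3 fibroblast markers, which was higher, and by 0 of the epithelial, retinal and pigment cell markers. A scarce marker can pass the filter on mean FPKM through the group where it is higher. The count of 3 of 3 macrophage markers therefore does not stand for the whole list. The part of these cell types in the PDGF transcripts was not tested.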

How the data were processed

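Lenses of 2 mutant and 2 control pools were sequenced as polyA RNA. The authors' provider aligned reads with HISAT2 and counted them per gene with featureCounts, and the authors deposited FPKM of 56748 genes. The labels name mm39. Multiplied by gene length, 100% of values were whole multiples of 1 read (tolerance 0.01 read). Of the per-sample columns, 0 were unused.

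Median-ratio rescaling of the libraries changed FPKM by 1.01 times in all 4. The 15997 genes averaging 0.1 FPKM or more were tested on log2(FPKM + 0.1) with limma (lmFit, eBayes with trend), two-sided, with Benjamini-Hochberg adjustment over all genes. Differences on this scale understate changes of low genes. A count test was run only as limma's voom on recovered reads. A count of 0 was taken to allow 3 reads. Ratios were compared by exact permutation of libraries. The fits were tested on simulated data.

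The genes and lists were chosen with earlier results of these data known. Named were all PDGF genes, the 3 genes of smallest p in each pathway or relatives list, class III receptors and ligands, *S100a4*, neighbours of the receptor genes, *Pdgfrb* neighbours within 1 Mb with p under 0.05, the 2 most similar genes, and the top and zero members of marker lists. *Shc1*, *Plat*, the genes below the filter and the overlapping genes lie outside this rule and were named after their values were seen. A gene that this rule takes in is not reported here. Alternatives were other pseudocounts, filters, scalings, variance models and tests, a replicate block, an *Xist* covariate, each library left out, and other windows. The crossed pairing is the same fit as the *Xist* covariate. The length centring was added after seeing the data.

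Software was R 4.3.3, limma 3.58.1, data.table (1.17.8), Python 3.11.15, numpy 2.4.6, pandas 2.3.3, scipy 1.17.1 and matplotlib 3.10.9.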

Additional observations from a re-analysis of the deposited data

How the results depend on the processing

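The direction of *Pdgfa*, *Pdgfb*, *Pdgfra* and *Pdgfrb* was kept in all of 16 alternatives (15 for *Pdgfb*, which a minimum mean of 1 FPKM leaves out), and none passed an adjusted p of 0.05 in any. Several of these alternatives could not change the direction. Other filters, the fit without a variance trend, the replicate block and the *Xist* covariate leave the log2 difference itself as it was. Omitting the rescaling, which was equal in all libraries, hardly moves it. With each library left out in turn, where the lone sample of a group is assumed to vary like the other group, the log2 difference ran from -0.46 to -0.088 for *Pdgfra*, from -0.38 to -0.068 for *Pdgfa*, from -0.82 to -0.15 for *Pdgfb* and from 0.0025 to 0.32 for *Pdgfrb*. Over all genes, 6 passed the adjusted threshold. The count was 2 with a pseudocount of 0.01 or of 1, with a minimum mean of 1 FPKM or without the variance trend, 1 without a filter, and 14 in voom, and it was 0 without any 1 library, where 787 to 1464 genes had an unadjusted p under 0.05. Voom called 1 gene of receptor turnover, *Socs2*, against 0. Same-numbered libraries did not deviate together (r = -0.113 over 8378 genes), so the numbers are not taken as pairs. The replicate block gave 2 calls and the crossed pairing, which is also the *Xist* covariate, 1, and neither called a PDGF gene. Within mutant or within control libraries alone, 4 of the 5 neighbours in the order of levels had ranges that did not overlap, against 2 over all libraries. Genes with an unadjusted p under 0.05 (6.31% of all genes) numbered 13 of 87, 6 of 83 and 4 of 33 tested within 2 Mb of *Pdgfa*, *Pdgfb* and *Pdgfra*, against 6 of 37, 3 of 44 and 1 of 11 within 1 Mb, and 0 of 18 within 0.5 Mb of *Pdgfrb*, against 2 of 27. With 2 libraries per group, the 95% intervals of the 2 receptor genes and *Pdgfa* allow folds from 0.622 to 1.49, and that of *Pdgfb*, from 10 to 31 reads a library, folds from 0.331 to 1.54.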

Other observations

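Around the other 5 PDGF loci, 0 genes within 1 Mb passed an adjusted p of 0.05 in limma or voom. An unadjusted limma p under 0.05 was reached by 6 of 37 genes around *Pdgfa*, 3 of 44 around *Pdgfb*, 1 of 11 around *Pdgfra*, 0 of 4 around *Pdgfc* and 0 of 2 around *Pdgfd*. The first 3 of these shares are 16.2%, 6.82% and 9.09%, beside 6.31% of all genes. The 1 gene at *Pdgfra* was the microRNA gene *Mir7025*, on the same strand within *Pdgfra* and chosen here after its values were seen. It had 2 and 3 reads in mutant libraries 1 and 2 and 0 in both control libraries, all at or under the count that a reading of 0 allows (limma adjusted p = 0.0556, voom adjusted p = 0.699). Around *Pdgfa*, 4 of the 6 genes had lower values in mutant lenses and 2 had higher values. The 2 higher ones had 3 to 10 reads in mutant and 0 to 2 in control libraries. They passed the filter on mean FPKM through the mutant libraries alone, as did *Mir7025*. Scarce genes counted around *Pdgfb* also passed it through 1 group alone. Reads of *Mir7025* and of its host transcript cannot be told apart in this table.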
